A study of Mus musculus with 12 samples.

Results

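The comparison set RNA recovered with the U1 small nuclear ribonucleoprotein (U1 snRNP) from mouse brain 90 min after a convulsion against that from naive brain. It rested on 6 of the 12 libraries of the series, 3 U1 immunoprecipitates from naive mice and 3 from mice given maximal electroconvulsive stimulation (MECS), chosen by their labels. Both groups were male C57BL6JL mice, 3 to 5 months old, and in both the tissue was cortex and hippocampus mixed. MECS was a train of 0.5 ms pulses lasting 1 s, at 100 Hz and 85 mA, delivered through ear clips, and every stimulated animal convulsed. Naive animals were handled alongside and received no current. Homogenised tissue of both groups was irradiated with ultraviolet light at 400 mJ/cm2, which crosslinks RNA to protein, and the lysate was precipitated with an antibody against U1-70K, the U1 snRNP protein that Snrnp70 encodes. The other 6 libraries held input RNA, taken from the lysates before precipitation, and their values are given only beside a U1 value. No control precipitate was used here, so how much RNA came down without U1 was not tested.

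The U1 snRNP pairs its RNA with the splice site at the start of an intron and so begins assembly of the spliceosome. It also pairs with similar stretches inside introns, where it holds back cleavage at early polyadenylation signals, which matters most in long genes. Many long genes of cortex and hippocampus encode synaptic and signalling proteins. A convulsion drives neurons to transcribe activity-regulated genes within minutes, and the comparison asked whether the RNA held by U1 changes with it.

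The deposited values were read counts per annotated gene. Most of the counts lay where the annotated gene overlaps a gene on the other strand, and no source read for this work states how the counting treated strand. Each annotated gene is therefore called a feature, and a value under its symbol is that of the feature and not a measured level of its transcript. A host was assigned where at least 50% of the exon bases of a feature lay within a single gene of the other strand and at most 10% within any second one. It was an intron feature where at least 80% of the overlap was intronic in the host, an exon feature where at least 80% was exonic, and otherwise mixed. Coordinates and overlaps are those of GENCODE M21 on GRCm38.

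Gene counts were 773074, 1962312 and 1149385 in naive libraries 1, 2 and 3, and 1326618, 1232946 and 1666851 in MECS libraries 1, 2 and 3. These made up 1.48 to 1.84% of the listed reads of each library, since 88.3 to 90.7% fell in no feature. Levels are CPM, a count as a share of the gene counts of its library after TMM scaling, and CPM of hosts, scaled separately, differ slightly from CPM of features. Changes are MECS minus naive on the log2 scale with a standard error (SE), tested by edgeR's quasi-likelihood test at a Benjamini-Hochberg adjusted p of 0.05. No label says that the 3 libraries of a group came from separate animals or pools, so the p-values measure the spread between these libraries, which may be technical. In bulk tissue, fewer cells of a type and less RNA per cell cannot be told apart. Features under the symbols of 12 excitatory neuron markers were read for the labelled tissue, and 8 had enough counts to be tested. The 12 summed to 379 to 518 CPM in naive and 392 to 504 CPM in MECS libraries, and none was at 0. As values of features, these do not measure the levels of the marker transcripts.

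After MECS, 37 of 11141 tested features rose in U1 RNA and 6 fell, together 0.386% of those tested (0.332% rose and 0.0539% fell). Rises included features lying inside Adamts9, Ppm1h, Amph, Pde10a, Prkca and Itgad, the feature Hif1a, which encodes the oxygen-regulated transcription factor HIF-1α, features with no gene opposite, among them Ube3b and Tmem222, and features that overlap an opposite-strand gene in part. The falls were at Slc22a8, Lca5, Irf1, Vinac1, C230034O21Rik and Engase. Of the 37 that rose, 26 had a host and 11 did not, and none of the 6 that fell had one. Most of the 11141 tested features had no host either. Among them, 3567 overlapped an opposite-strand gene in part, or several, and 3398 overlapped none. Annotated as antisense RNA were 12 of the 37, as protein-coding 15, as processed pseudogenes 3 and as TEC, a class of transcripts awaiting experimental evidence, 4. Shares of these annotation classes over all 11141 tested features are not given, so the numbers describe the 37 alone. An unadjusted p under 0.05 was found for 688 features above 0 and 485 below. In 36 of the 37 that rose, all 3 MECS libraries lay above all 3 naive libraries, a separation that 8.21% of all tested features showed. In all 6 that fell they lay below, as in 7.24% of all.

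**Figure D1:**
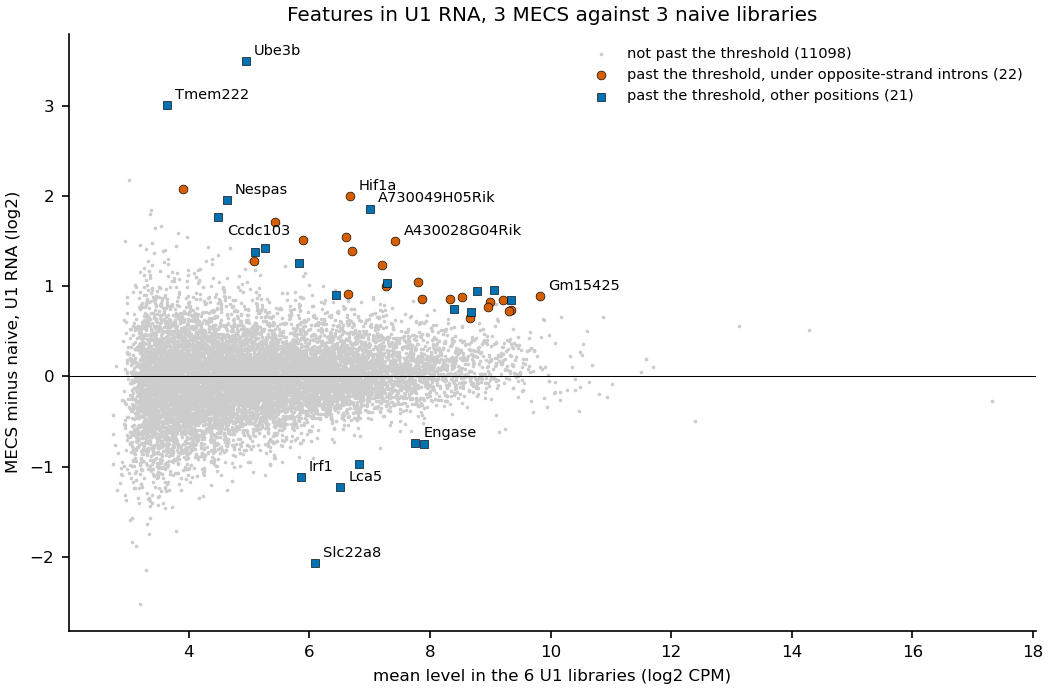
Change in U1 RNA after MECS (vertical axis, log2, MECS minus naive) against mean level in the 6 U1 libraries (horizontal axis, log2 CPM) for each of 11141 tested features. Grey points did not pass the threshold; the 22 circles are intron features that rose, and the 21 squares are all other features that passed, 6 of them below 0.

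The features were described by their position against the opposite strand. Intron features made up 22 of the 37, 0.732% of the 3005 tested, where 0.332% of all tested features rose, and none of the 3005 fell. Their median change was 0.08 and 60.2% were above 0, beside a median of -0.02 and 48.1% over all tested features. Exon features rose in 2 of 425 cases and mixed ones in 2 of 724. Of 3567 features that overlapped an opposite-strand gene in part, or several, 7 rose and 4 fell. The 3398 features with no opposite-strand gene had a median of -0.10, 39% were above 0, and 4 rose and 2 fell. As a share of gene counts, intron features held 23.3, 24.5 and 21.4% in naive libraries 1, 2 and 3 and 25.5, 26.1 and 25.1% in the MECS libraries. All 3 MECS shares lay above the naive ones (exact permutation test, two-sided, p = 0.1, the smallest that 3 against 3 allows). The same separation was seen in input RNA, at 20.92 to 22.54% in naive and 22.9 to 26.01% in MECS libraries. Ribosomal RNA features held 18.02 ± 2.13% of naive and 14.7 ± 2.16% of MECS gene counts (SD, n = 3 each), with overlap between the groups. In input RNA they held 13.82 to 15.67% in naive and 6.082 to 11.71% in MECS libraries. The share of intron features was 1.86 percentage points higher in MECS with ribosomal, mitochondrial and small RNA features left out, and 2.51 with them.

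The sequences below let a reader see what the risen features are made of. U1 RNA can pair with the letters GTAAGT and with GGTAAG, and AATAAA is the common polyadenylation signal. In windows of 300 bases at the middle of the longest exon, read on the host's strand, GTAAGT was present in 3 of the 18 intron features that rose and had such an exon, or 16.7%, and in 5.42% of all 2362 such windows. On the other strand it was in 0 of the 18 windows and in 3.98% of all. GGTAAG was in 1 of the 18 (5.56%) and in 5.29% of all, and AATAAA in 3 (16.7%) and in 11.9% of all. A match describes these letters and is not a measured binding site. The 3 windows with GTAAGT lay inside Ppm1h, Kcnq1 and Atxn1, and the fourth sequence, inside Pde10a, belongs to the most abundant feature that rose; capitals mark the 3 motifs named here. The fifth is the whole feature inside Sorcs3, the only tested feature of that host. All are given 5′ to 3′ on the host's strand from the GENCODE M21 transcripts (GRCm38).
A430028G04Rik (inside Ppm1h): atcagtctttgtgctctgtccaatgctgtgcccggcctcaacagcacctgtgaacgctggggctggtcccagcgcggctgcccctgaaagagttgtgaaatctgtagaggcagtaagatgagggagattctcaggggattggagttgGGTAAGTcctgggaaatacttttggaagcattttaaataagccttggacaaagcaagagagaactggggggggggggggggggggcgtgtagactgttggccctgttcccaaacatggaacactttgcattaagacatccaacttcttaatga
Kcnq1ot1 (inside Kcnq1): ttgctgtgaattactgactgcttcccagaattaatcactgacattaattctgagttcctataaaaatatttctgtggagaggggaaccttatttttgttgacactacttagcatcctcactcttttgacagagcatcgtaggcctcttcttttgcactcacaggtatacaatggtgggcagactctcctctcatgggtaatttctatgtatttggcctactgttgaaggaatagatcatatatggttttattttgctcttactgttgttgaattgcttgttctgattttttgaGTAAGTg
Gm47460 (inside Atxn1): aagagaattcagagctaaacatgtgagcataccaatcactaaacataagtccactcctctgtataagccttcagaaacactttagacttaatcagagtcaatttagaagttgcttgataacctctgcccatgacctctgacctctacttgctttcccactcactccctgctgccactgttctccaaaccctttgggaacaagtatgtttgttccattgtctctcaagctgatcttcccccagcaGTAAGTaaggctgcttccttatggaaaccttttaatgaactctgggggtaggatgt
Gm15425 (inside Pde10a): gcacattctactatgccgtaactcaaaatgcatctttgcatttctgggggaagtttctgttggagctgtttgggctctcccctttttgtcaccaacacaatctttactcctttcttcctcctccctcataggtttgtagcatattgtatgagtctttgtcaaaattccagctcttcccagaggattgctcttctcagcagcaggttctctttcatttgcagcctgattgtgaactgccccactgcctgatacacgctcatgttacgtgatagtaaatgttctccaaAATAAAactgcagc
Gm23857 (inside Sorcs3): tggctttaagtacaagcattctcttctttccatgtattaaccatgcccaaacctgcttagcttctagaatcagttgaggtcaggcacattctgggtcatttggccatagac
The first window is at chr10:122757275-122757574 (plus strand), the second at chr7:143249854-143250153 (plus strand), the third at chr13:45754889-45755188 (minus strand), the fourth at chr17:8567806-8568105 (plus strand) and the fifth sequence at chr19:48240535-48240645 (plus strand). GTAAGT and GGTAAG overlap in the first window and form 1 stretch there.

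Counts summed over all features of a host gave 16 hosts that rose and 3 that fell of 3187 tested, 0.596% in all. Of the 16, 12 were longer than 100 kb and 8 had a single feature. Shares over all 3187 tested hosts are not given beside these, so the numbers describe the 16 alone.

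Adamts9 is the gene of a metalloproteinase, released from cells, that cuts proteoglycans of the extracellular matrix (chr6:92772699-92943492, minus strand). Its features stood at 112, 141 and 174 CPM in naive libraries 1, 2 and 3 and at 479.6, 309 and 388 CPM in MECS libraries 1, 2 and 3. The lowest MECS library was well above the highest naive one. The change was 1.45 (SE 0.17, adjusted p = 0.000166). Both of its features rose, Gm15737 by 1.23 (SE 0.18) and A730049H05Rik, farther from the host's start, by 1.86 (SE 0.20). All 3 calls were kept under every alternative run.

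Ppm1h, the gene of a metal-dependent protein phosphatase (chr10:122678762-122945795, plus strand), had 124, 146 and 123 CPM in the naive and 447, 197 and 413 CPM in the MECS libraries, a change of 1.42 (SE 0.22, adjusted p = 0.0021). MECS library 2 was the lowest of the 3 and still above every naive library. The same separation held for A430028G04Rik, which rose by 1.5 (SE 0.23), and Gm47582, which rose by 1.71 (SE 0.32). The third feature, Gm36208, farther from the start, had a change of 1.13 (SE 0.32) that did not pass, with overlapping groups. Without MECS library 1 the host's adjusted p was 0.0907. The adjusted p of Gm47582 was 0.0563 without naive library 1, 0.0619 without naive library 3, 0.119 without MECS library 1 and 0.0632 without MECS library 3. A430028G04Rik kept its call under every alternative run.

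Amph encodes amphiphysin, which helps to recover synaptic vesicle membrane by endocytosis (chr13:18948205-19150921, plus strand). Its 3 features summed to 108, 163 and 94.00 CPM in the naive and 391, 197 and 394 CPM in the MECS libraries, a change of 1.4 (SE 0.22, adjusted p = 0.00327). MECS libraries 1 and 3 were nearly equal and MECS library 2 lay closer to the naive range without entering it. The features lie at separate places along the gene and each rose: Gm47658 by 1.39 (SE 0.26), Gm47661 by 1.54 (SE 0.25) and Gm47660, a processed pseudogene whose reads could be shared with copies elsewhere, by 1.28 (SE 0.28). The host's adjusted p was 0.12 without MECS library 1. The adjusted p of Gm47661 was 0.0563 without naive library 1. That of Gm47658 was 0.144 without naive library 1, 0.0745 without naive library 3 and 0.118 without MECS library 1. That of Gm47660 was 0.205 without naive library 1, 0.125 without naive library 3, 0.334 without MECS library 1 and 0.126 without MECS library 3.

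Syn2, the gene of the vesicle protein synapsin II, has 1 feature, the processed pseudogene Gm18325. The host had 142, 156 and 143 CPM in naive and 358, 185 and 329.8 CPM in MECS libraries and changed by 0.98 (SE 0.19, adjusted p = 0.021), with the same low MECS library 2. Its adjusted p was 0.154 without naive library 1, 0.289 without MECS library 1 and 0.0513 without MECS library 3.

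Sorcs3 encodes a neuronal sorting receptor known to respond to activity (chr19:48206025-48805505, plus strand). Its single feature, Gm23857, 111 bases long and annotated as ribosomal RNA, gave 48.1, 26.3 and 20.3 CPM in naive and 111, 43.9 and 91.8 CPM in MECS libraries. Here the groups overlapped, since MECS library 2 lay below naive library 1. The change was 1.45 (SE 0.31, adjusted p = 0.0319), and the adjusted p was 0.342 without MECS library 1, 0.0627 without naive library 2, 0.0623 without naive library 3 and 0.0559 without MECS library 3. Pcdh8 encodes a protocadherin that neuronal activity is known to induce and that acts at synapses. Of the exon bases of its 1 feature, Gm9748, 55.7% lie within Pcdh8, over its exons, and the feature reaches past the start. The host's level was 49.4, 27.4 and 25.8 CPM in naive and 81.6, 58.2 and 85.04 CPM in MECS libraries. The groups did not overlap and the change was 1.2 (SE 0.25, adjusted p = 0.0261). Its adjusted p was 0.289 without MECS library 1, and it exceeded the threshold without naive library 2, naive library 3 or MECS library 3 as well (0.0564 to 0.0862). The call of Pcdh8 was also lost with all 12 libraries fitted together.

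Pde10a, Prkca, Pi4ka and Hdac4 are in the same list of signalling enzymes as Ppm1h. Pde10a, the gene of a phosphodiesterase that breaks down cyclic AMP and cyclic GMP (chr17:8525372-8986648, plus strand), was the most abundant host that rose, at 1112, 1083 and 970.4 CPM in naive and 1763, 1635 and 1898 CPM in MECS libraries. Each group was tight and they stood apart. The change was 0.74 (SE 0.14, adjusted p = 0.0177). Of the host's counts, 63.8% were in Gm15425, a processed pseudogene whose reads could be shared with copies elsewhere. Prkca encodes protein kinase C alpha, and its features gave 184, 239 and 185 CPM in naive and 375, 261 and 366 CPM in MECS libraries. MECS library 2 was only just above naive library 2, and the change was 0.71 (SE 0.16, adjusted p = 0.0441). Pi4ka encodes a kinase that makes phosphatidylinositol 4-phosphate, and its 1 feature, Serpind1, is itself the gene of a clotting inhibitor, heparin cofactor. The host stood at 242, 248 and 207 CPM in naive and 454, 287 and 470.5 CPM in MECS libraries, apart in every library, with a change of 0.80 (SE 0.17, adjusted p = 0.0261). Hdac4, the gene of a histone deacetylase that moves between nucleus and cytoplasm with neuronal activity, had 336, 336 and 288 CPM in naive and 497, 429 and 521 CPM in MECS libraries, without overlap, and changed by 0.59 (SE 0.14, adjusted p = 0.0464) through the feature Gm37048. These 4 calls were lost without MECS library 1, with adjusted p of 0.17 for Pde10a, 0.353 for Prkca, 0.292 for Pi4ka and 0.31 for Hdac4. They were lost without naive library 1 too (0.109 to 0.246) and without MECS library 3 (0.075 to 0.211). With limma-voom the adjusted p was 0.0692 for Prkca and 0.0542 for Pi4ka and Hdac4. Those calls of Prkca and Hdac4 were also lost without naive library 3 (0.0705 and 0.0929). Inside the kinase gene Prkce, 2010106C02Rik rose by 1.01 (SE 0.19), and inside the lipid transfer gene Pitpnm2, Pitpnm2os2 rose by 0.72 (SE 0.16), although their hosts did not pass. The adjusted p of 2010106C02Rik was 0.14 without naive library 1, 0.0619 without naive library 3, 0.127 without MECS library 1 and 0.0792 without MECS library 3. That of Pitpnm2os2 was 0.315 without naive library 1, 0.344 without MECS library 1 and 0.186 without MECS library 3.

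Other hosts that rose encode an ion channel, a carrier and regulatory RNAs. Kcnq1, a potassium channel gene in an imprinted region, contains Kcnq1ot1, the long noncoding RNA that silences neighbouring genes on the paternal chromosome, and 95.1% of the host's counts were in that feature. Kcnq1ot1 had 304, 378 and 413 CPM in naive and 728, 676 and 549 CPM in MECS libraries, with no overlap, and rose by 0.83 (SE 0.15, adjusted p = 0.0103). Its adjusted p was 0.161 without naive library 1 and 0.127 without MECS library 1. Nespas, an imprinted antisense RNA of the Gnas locus, which encodes the stimulatory G protein subunit, went from 15.2, 5.61 and 9.701 CPM in the naive to 33.6, 28.5 and 45.2 CPM in the MECS libraries and rose by 1.96 (SE 0.35, adjusted p = 0.00938). All MECS libraries were above all naive ones, and the adjusted p was 0.0632 without MECS library 3. The feature Gm13833, inside the p53-regulated noncoding RNA gene Lncpint, was nearly constant among naive libraries at 488, 480.4 and 490.4 CPM and stood at 876, 724 and 836 CPM in MECS libraries, a rise of 0.74 (SE 0.14). Slc25a36 encodes a mitochondrial pyrimidine nucleotide carrier, and its feature Gm16185 rose by 0.84 (SE 0.17), from 411, 548 and 309.6 to 805, 751 and 734 CPM. The calls of Gm13833 and Gm16185 were lost without naive library 1 (0.118 and 0.203) and without MECS library 1 (0.127 and 0.128), and that of Gm16185 without naive library 3 (0.0669).

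In 2 more neuronal genes a feature rose while the host did not pass. Gm47460 lies in an intron of Atxn1, the ataxin gene whose repeat expansion causes a spinocerebellar ataxia. It had 74.6, 73.4 and 53.8 CPM in naive and 118, 104 and 158 CPM in MECS libraries and rose by 0.92 (SE 0.20, adjusted p = 0.0362). AC167245.1 lies in an intron of Nrxn2, the gene of the presynaptic adhesion protein neurexin-2. It had 389.6, 358 and 359.8 CPM in naive and 687, 548 and 647 CPM in MECS libraries and rose by 0.77 (SE 0.14, adjusted p = 0.0103). The groups did not overlap at either. For Gm47460 the adjusted p was 0.14 without naive library 1, 0.137 without naive library 3, 0.127 without MECS library 1 and 0.241 without MECS library 3. That of AC167245.1 was 0.0744 without naive library 1 and 0.127 without MECS library 1.

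Sav1, a scaffold of the Hippo kinase pathway, was the only host that rose without any of its features passing alone. Its 3 pseudogene features, which can share reads with copies, had changes of 0.64 (SE 0.16), 0.66 (SE 0.18) and 0.46 (SE 0.29). Summed, they gave 200.4, 235 and 220.3 CPM in naive and 339, 329.8 and 318 CPM in MECS libraries, a change of 0.58 (SE 0.13, adjusted p = 0.0464) that was lost without naive library 1 (0.246), MECS library 1 (0.31), MECS library 3 (0.119) or naive library 3 (0.0601). Itgad, an integrin gene of myeloid cells, changed by 1.46 (SE 0.30, adjusted p = 0.0261) from a low level of 11.7, 16.2 and 9.22 CPM in naive to 31.4, 31.01 and 44.05 CPM in MECS libraries. Of its features, Gm44850 rose by 2.08 (SE 0.45), and Cox6a2, a muscle cytochrome oxidase subunit gene, had a change of 0.91 (SE 0.41) that did not pass. For Gm44850 the adjusted p was 0.161 without naive library 1, 0.137 without naive library 3, 0.127 without MECS library 1 and 0.254 without MECS library 3. Without MECS library 1 the adjusted p of Itgad was 0.17, without naive library 1 0.154, without MECS library 3 0.147 and without naive library 3 0.0637.

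**Figure D2:**
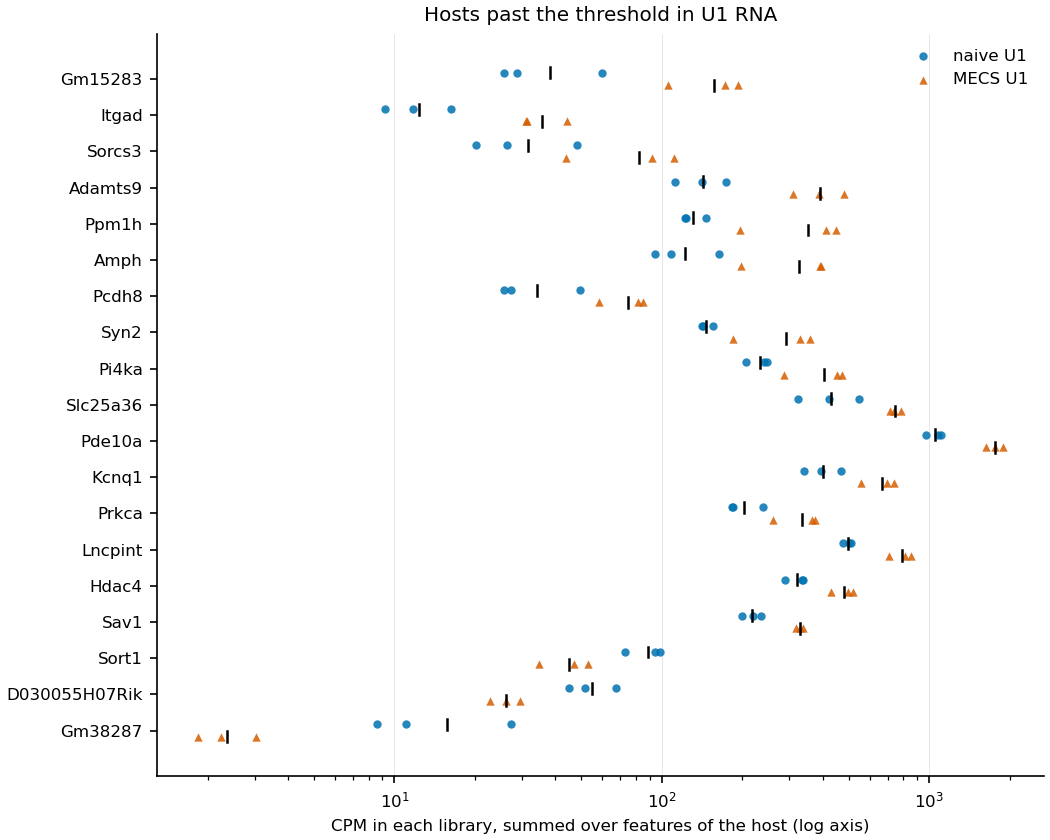
Level in U1 RNA of the 19 hosts past the threshold (horizontal log axis, CPM summed over a host's features); circles are the 3 naive libraries, triangles the 3 MECS libraries and black ticks the group means. In the upper 16 hosts the MECS libraries lie to the right, overlapping the naive ones only for Sorcs3, and in Sort1, D030055H07Rik and Gm38287 they lie to the left.

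Among features with a host, Hif1a changed by 2.0, next to Gm44850 inside Itgad in size. Its exons lie within an intron of Gm15283, a gene of the other strand with no assigned function in the files (chr12:73843039-73949814, minus strand), while Hif1a itself is at chr12:73901375-73947530, plus strand. Levels were 27.8, 60.2 and 24.7 CPM in naive libraries 1, 2 and 3 and 196, 107 and 178 CPM in MECS libraries 1, 2 and 3. Naive library 2 was the highest of its group and MECS library 2 the lowest of its own, and they did not meet. The rise was 2.0 (SE 0.27, adjusted p = 0.000473) and was kept under every alternative run. Of 7 tested hypoxia-response genes, read by their own symbols, 6 were above 0 and Hif1a alone rose. Vegfa, the vascular growth factor gene, had a change of 0.74 (SE 0.26, adjusted p = 0.268), the carbonic anhydrase gene Car9 0.48 (SE 0.21, adjusted p = 0.418) and the glucose transporter gene Slc2a1 -0.22 (SE 0.34, adjusted p = 0.878). The 15 genes of that list summed to 189 to 209 CPM in naive and 314 to 409 CPM in MECS libraries, and without Hif1a to 148.8 to 169.7 and 189 to 215.6 CPM. These sums, like all list sums here, are scaled by library size without TMM. As a host, the hypoxia-induced mitophagy gene Bnip3 did not pass (0.65, SE 0.18, adjusted p = 0.0941), although the antisense feature Gm45507 over its exons rose by 0.91 (SE 0.20, adjusted p = 0.0408). The adjusted p of Gm45507 was 0.257 without naive library 1, 0.0852 without naive library 3 and 0.417 without MECS library 1.

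The length of the host and the place of the feature within it were read for the 3005 tested intron features. In hosts of up to 100 kb, 2 of 1348 rose, and in longer hosts 20 of 1657. By length the shares were 0 of 325 up to 25 kb, 0.24% of 417 at 25 to 50 kb, 0.165% of 606 at 50 to 100 kb, 1.09% of 645 at 100 to 200 kb, 1.43% of 491 at 200 to 400 kb and 1.15% of 521 over 400 kb. Medians differed less by length, from 0.03 in the shortest class to 0.14 in the longest, where 67.8% of features were above 0. The hosts of the 22 features that rose had a median length of 203 kb, against 114 kb for all tested intron features. None of the 22 lay more than 217 kb from the start of its host. In hosts over 200 kb, 4 of 124 features within 50 kb of the start rose, 3 of 136 at 50 to 100 kb, 4 of 233 at 100 to 200 kb, 2 of 188 at 200 to 300 kb, 0 of 116 at 300 to 400 kb and 0 of 215 beyond. The far features had the higher medians all the same, 0.16 at 300 to 400 kb and 0.15 beyond, with 69.8 and 71.2% above 0, beside 0.12 and 57.3% within 50 kb. Features of 1 host share its transcript, so they are not separate samples.

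Within a pair of long hosts, features near and far from the start could be set against each other in each library. They were picked after the values were seen. In Pde10a, Gm15425 and Gm17087, which overlap each other 41 kb from the annotated start, had 6.63, 6.71 and 5.84 times the counts of Gm15426, 240 kb from it, in naive libraries 1, 2 and 3. The ratios were 8.66, 10.8 and 13.6 in MECS libraries 1, 2 and 3, all above the naive ones. Gm15425 and Gm15426 are annotated as processed pseudogenes, whose reads could be shared with copies elsewhere. Distances are from the GENCODE start, and the starts that RefSeq gives for Pde10a lie past all 3 features. In Prkca, Gm11655, 156 kb from the start, had 5.57, 5.81 and 5.43 times the counts of Gm11657, 350 kb from it, in naive libraries, and 9.06, 9.31 and 8.78 times in MECS libraries. No test is given, since both genes were picked for near features that rose and far ones that did not pass. In input RNA the mean ratio went from 6.12 to 11 in Pde10a and from 4.39 to 10.6 in Prkca. In the fit over all features, the near ones rose, Gm15425 by 0.89 (SE 0.14), Gm17087 by 0.88 (SE 0.15) and Gm11655 by 0.86 (SE 0.17). The far ones, at 0.14 (SE 0.16) for Gm15426 and 0.17 (SE 0.26) for Gm11657, did not pass. The adjusted p of Gm17087 was 0.0563 without naive library 1. That of Gm11655 was 0.205 without naive library 1, 0.0852 without naive library 3, 0.212 without MECS library 1 and 0.0833 without MECS library 3.

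**Figure D3:**
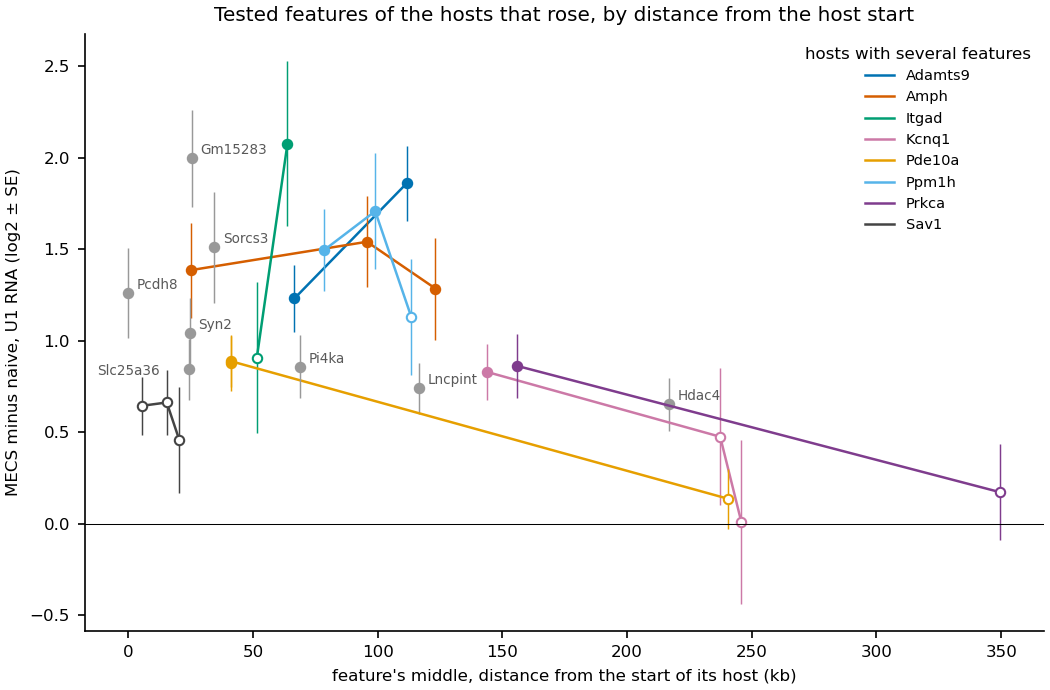
Change in U1 RNA (vertical axis, log2 with SE bars, 3 MECS minus 3 naive libraries) of each tested feature of the 16 hosts that rose, against the distance of its middle from the host's start (horizontal axis, kb). Filled points rose and open points did not pass; lines join features of 1 host, and in Pde10a, Prkca and Kcnq1 the far features lie nearer 0 than the near ones, while in Adamts9 and Itgad the far feature lies higher and Amph shows neither order.

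The starts of the hosts were searched for letters known to bind activity-regulated factors. RefSeq (GRCm38.p6) gave promoters for 16 of the 22 hosts that rose or held a feature that rose, 23 windows of 250 bases before starts that RefSeq gives. These can differ from the GENCODE start used for distances: both Pde10a windows lie inside the GENCODE gene, past all 3 of its features. The cyclic AMP response element TGACGTCA, bound by CREB, was in 1 of the 23 windows (4.35%) and in 1.55% of all 32851. The shorter TGACG, which is part of it, was in 7 windows (30.4%), belonging to 5 hosts, and in 17.8% of all. TGAGTCA, bound by Fos and Jun proteins, was in 0 windows and in 4.46% of all, and GCGTGGGCG, bound by EGR proteins, in 0 and in 0.536% of all. Both strands were read. The 1 match is in the window of Slc25a36, shown with the element in capitals, 5′ to 3′ on the gene's strand (chr9:97111042-97111291, minus strand).
Slc25a36 promoter: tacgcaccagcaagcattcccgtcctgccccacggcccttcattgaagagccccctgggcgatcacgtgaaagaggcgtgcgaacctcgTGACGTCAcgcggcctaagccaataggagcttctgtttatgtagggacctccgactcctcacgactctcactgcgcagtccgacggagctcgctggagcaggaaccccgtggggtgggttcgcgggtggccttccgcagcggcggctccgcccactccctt
A match here describes letters and says nothing of binding in these samples.

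A separate set of rises had no host. The largest of all was at Ube3b, the gene of a ubiquitin ligase (chr5:114380607-114421169, plus strand), with no opposite-strand gene and the nearest one that ends toward it, Mmab, 9.87 kb away. Levels were 3.79, 1.53 and 9.701 CPM in naive and 49.6, 38.5 and 67.2 CPM in MECS libraries. Every MECS library was several times any naive one, and the change was 3.50 (SE 0.42, adjusted p = 0.000105). Tmem222, a membrane protein gene (chr4:133266045-133277792, minus strand), lies 13.1 kb from the end of Map3k6. It had 0 counts in naive library 1, 2.55 and 3.53 CPM in naive libraries 2 and 3, and 17.6, 18.5 and 20.7 CPM in the MECS libraries. The change was 3.01 (SE 0.52, adjusted p = 0.00716), and it was not tested in input RNA for lack of counts. Both calls were kept under each alternative that gave an adjusted p, and DESeq2 gave none for either. Neighbours on chromosome 11, Ccdc103, needed for the movement of cilia, and Fam187a, lie 2.12 and 0.605 kb from the end of Gfap, the gene of the astrocyte filament protein on the other strand. Ccdc103 had 5.06, 5.61 and 17.6 CPM in naive and 34.4, 27.7 and 33.3 CPM in MECS libraries and rose by 1.77 (SE 0.38, adjusted p = 0.0362). Fam187a had 10.1, 16.8 and 31.8 CPM in naive and 71.00, 47.8 and 42.1 CPM in MECS libraries and rose by 1.42 (SE 0.31, adjusted p = 0.0365). The MECS libraries were above the naive ones at both, and both calls were lost without naive library 1 (0.205 and 0.236), naive library 2 (0.0605 and 0.0571) and MECS library 1 (0.212 and 0.383), and that of Ccdc103 without MECS library 3 (0.0874).

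Features that overlap an opposite-strand gene over a minority of their exon bases rose as well. Ppp2r1b, a scaffold subunit of protein phosphatase 2A, shares 22.2% of its exon bases with Sik2, a kinase gene that acts on CREB coactivators. It was tight in the naive group at 281, 302 and 309.6 CPM, stood at 614, 496 and 609 CPM in the MECS group and rose by 0.94 (SE 0.14, adjusted p = 0.00198), a call kept under every alternative run. Ap3m1, a subunit of a vesicle adaptor, shares 31.9% with Vcl, the vinculin gene. It had 433, 468 and 491 CPM in naive and 895, 731 and 872 CPM in MECS libraries and rose by 0.84 (SE 0.14, adjusted p = 0.0048). The groups were far apart, although the adjusted p was 0.0744 without naive library 1 and 0.0687 without MECS library 1. Ccdc152 shares 32.3% with Selenop, the gene of the secreted selenium carrier. It had 264, 513 and 299 CPM in naive and 859, 684 and 569 CPM in MECS libraries and rose by 0.96 (SE 0.20, adjusted p = 0.0241). Naive library 2 came close to MECS library 3, and without naive library 1, naive library 3 or MECS library 1 the adjusted p was 0.293, 0.108 and 0.285. Ica1l, related to a diabetes autoantigen and 8.83% under Fam117b, rose by 0.75 (SE 0.15), and the pseudogene 1810014B01Rik, 30.2% under the chaperone gene Hsp90b1, by 0.71 (SE 0.16). Rhbdd2, a rhomboid family gene 5.07% under Gm21839, rose by 1.38 (SE 0.28). These 3 calls were lost without naive library 1 (0.14 to 0.286) and without MECS library 1 (0.12 to 0.457), and those of Rhbdd2 and 1810014B01Rik without naive library 3 too (0.0852 and 0.0925). That of Rhbdd2 was also lost without MECS library 3 (0.0661).

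**Figure D4:**
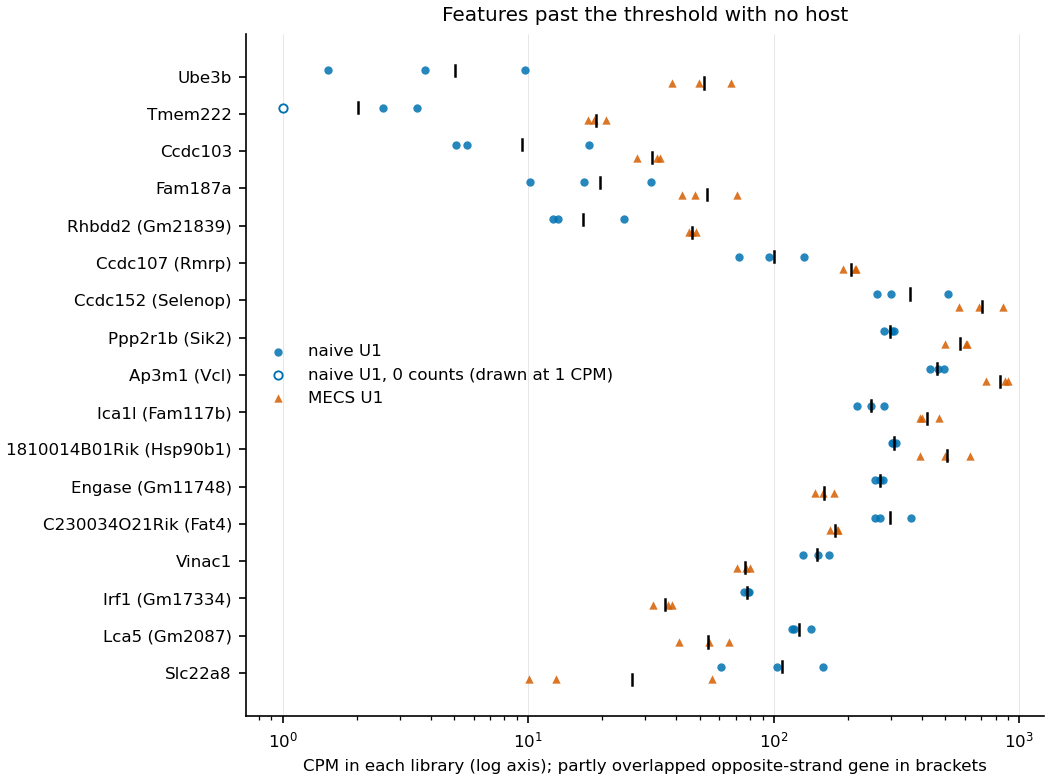
Level in U1 RNA (horizontal log axis, CPM) of the 17 features past the threshold that have no host, with the opposite-strand gene that each overlaps in part in brackets; circles are naive, triangles MECS libraries and black ticks group means. An open circle at 1 CPM stands for the 0 counts of Tmem222 in naive library 1, and the groups do not overlap in any of the 17.

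All 6 features that fell lacked a host, as did most tested features. Slc22a8 encodes an organic anion transporter of barrier cells (chr19:8591254-8611835, plus strand), and its nearest opposite-strand neighbour ending toward it, AC025794.1, is 40.0 kb away. It had 60.7, 104 and 159 CPM in naive and 12.98, 56.2 and 10.1 CPM in MECS libraries. MECS library 2 was several times the other MECS libraries and just below naive library 1. The feature fell by 2.08 (SE 0.40, adjusted p = 0.0119), and the adjusted p was 0.0925 without naive library 3, 0.127 without MECS library 1 and 0.271 with DESeq2. It belongs to a list of 12 meningeal and fibroblast markers, of which 4 were tested and all 4 lay below 0. The list summed to 127 to 227 CPM in naive and 41.4 to 99.0 CPM in MECS libraries, with Crabp2 at 0 in all 6. Without Slc22a8 it summed to 40.26 to 70.47 and 31.8 to 39.74 CPM. The other 3 did not pass: the related transporter gene Slc22a6 (-1.75, SE 0.49, adjusted p = 0.132), Lum (-0.31, SE 0.45) and Ptgds (-0.26, SE 0.38). Whether the amount of such tissue in the dissection differed was not tested.

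Lca5 encodes lebercilin, a protein of the ciliary base, and shares 6.41% of its exon bases with Gm2087. It had 142, 121 and 119 CPM in naive and 41.2, 65.5 and 54.7 CPM in MECS libraries, without overlap, and fell by 1.23 (SE 0.19, adjusted p = 0.00241), a call kept under every alternative run. Irf1, the gene of an interferon-regulated transcription factor, lies 3.40% under Gm17334. It was almost constant in the naive libraries at 75.9, 79.05 and 78.5 CPM and stood at 32.1, 38.5 and 37.1 CPM in the MECS libraries, a fall of 1.12 (SE 0.20, adjusted p = 0.00879) that was lost only without MECS library 1 (0.127). Vinac1, a gene related to vinculin and catenin genes with Gm14027 3.32 kb away on the other strand, fell by 0.98 (SE 0.17, adjusted p = 0.00716), from 152, 132 and 168 CPM in naive to 71.00, 80.1 and 77.3 CPM in MECS libraries. Without naive library 1 its adjusted p was 0.0563 and without MECS library 1 0.114. Engase, an enzyme that trims sugars from glycoproteins, lies 13.4% under Gm11748 and fell by 0.74 (SE 0.15). C230034O21Rik, 42.6% under the cadherin gene Fat4, fell by 0.75 (SE 0.16). Both groups were separate at these 2, but each call was lost without naive library 1 (0.14 and 0.0873), naive library 3 (0.0598 and 0.159) and MECS library 1 (0.241 and 0.186), and that of C230034O21Rik without MECS library 3 (0.158).

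Among hosts, Sort1, the gene of the sorting receptor sortilin, fell by 0.97 (SE 0.21, adjusted p = 0.0363) through Gm12523, from 98.9, 72.95 and 94.00 CPM in naive to 53.1, 46.9 and 34.9 CPM in MECS libraries. D030055H07Rik, opposite the glycerate kinase gene Glyctk, fell by 1.04 (SE 0.24, adjusted p = 0.0464), and Gm38287, opposite the Notch inhibitor gene Nrarp, fell by 2.56 (SE 0.56, adjusted p = 0.0363) on few counts, from 27.3, 8.61 and 11.1 to 2.25, 3.03 and 1.83 CPM. The groups were apart in each. None of the 3 features, tested alone, passed (Gm12523 adjusted p = 0.0544, Glyctk 0.0745, Nrarp 0.0541). All 3 host calls were lost without MECS library 1 (0.17 to 0.292), naive library 1 (0.216 to 0.246) and MECS library 3 (0.0862 to 0.179), that of Sort1 without naive library 3 (0.0657), and that of D030055H07Rik without MECS library 2 (0.0516).

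The rises were not of 1 size in all MECS libraries. Of the 37 features that rose, MECS library 2 was the lowest MECS library in 28 and the highest in 0, and of the 22 intron features it was the lowest in 20. Of the 16 hosts that rose it was the lowest in 13. Naive library 2, the most deeply sequenced, was the highest naive library in 17 of the 37. Without MECS library 2, 121 features passed and all 43 calls were kept. Without naive library 2, 225 passed and 41 of the 43 were kept. Without MECS library 1, 13 of the 43 kept their calls and without naive library 1, 14. Of the 19 host calls, 2 were kept without MECS library 1, 6 without naive library 1 and 6 without MECS library 3. Features kept under every alternative run were Hif1a, Ppp2r1b, Lca5, A730049H05Rik, Gm15737, Gm15425 and A430028G04Rik, and hosts Adamts9 and Gm15283. Ube3b and Tmem222 were kept under all but DESeq2, which gave them no adjusted p. With limma-voom 37 of the 43 features and 9 of the 19 hosts kept their calls. The adjusted p was then 0.061 for 1810014B01Rik, 0.106 for Gm44850, 0.0721 for Gm45507 and Gm47660, 0.0516 for Gm47460 and 0.069 for Gm47582. Among hosts it was 0.0542 for Hdac4, Itgad, Pi4ka, Sort1 and Syn2, 0.0571 for Sav1 and Sorcs3, 0.0692 for Prkca and D030055H07Rik and 0.078 for Gm38287. With DESeq2 34 of the 43 features and 16 of the 19 hosts kept their calls, and the adjusted p was 0.0913 for Gm47658 and 0.271 for Slc22a8. Besides Ube3b and Tmem222, DESeq2 gave no adjusted p for Ccdc103, Gm44850, Gm47660, Nespas and Rhbdd2. It gave none for the hosts D030055H07Rik, Gm38287 and Itgad.

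Gene lists gave the wider context, with a median host change of -0.01 and 48.6% of hosts above 0. Lists and members were chosen with earlier results of these data known. The counts below therefore describe the members and do not test whether a list rose more than other hosts. Read by host, 3 of 10 tested activity-regulated synaptic and secreted genes rose, Pde10a, Pcdh8 and Sorcs3, with 9 of 10 above 0 and a median of 0.97, where 0.502% of all tested hosts rose. Changes that did not pass were 1.74 (SE 0.47, adjusted p = 0.0941) for Inhba, an activin subunit gene, 1.38 (SE 0.37, adjusted p = 0.0941) for the chromatin remodeller gene Baz1a and 1.36 (SE 0.39, adjusted p = 0.108) for the neurotrophin gene Bdnf. Kinase, phosphatase and signalling genes had 5 hosts that rose of 22 tested, 16 above 0 and a median of 0.33. They were Ppm1h, Pde10a, Pi4ka, Prkca and Hdac4. Next in order stood Mast4 (0.64, SE 0.15, adjusted p = 0.0627) and Mapk4 (0.59, SE 0.14, adjusted p = 0.0695). Vesicle and presynaptic genes had 2 of 21, Amph and Syn2, with 17 above 0, and the vesicle phosphatase gene Synj1 did not pass (0.65, SE 0.16, adjusted p = 0.0631). Matrix and adhesion genes had 3 of 14, Adamts9, Pcdh8 and Itgad, and ion channels 1 of 22, Kcnq1. Pde10a and Pcdh8 are in 2 lists each. Postsynaptic genes had 0 of 21 (14 above 0) and very long neuronal genes 0 of 30 (21 above 0). Hypoxia-response genes had 0 of 5, and nuclear and imprinted noncoding RNAs 0 of 9. By own symbols, medians were -0.09 for activity-regulated genes (4 of 8 above 0), -0.11 for signalling (5 of 16) and -0.13 for vesicle genes (7 of 24). For matrix genes the median was 0.002 (6 of 12) and for ion channels -0.13 (7 of 27).

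Splicing regulators, whose products act with U1 at introns, had 12 of 15 hosts above 0, a median of 0.17 and by edgeR 0 that passed, with 5 above 0 at an unadjusted p under 0.05. Read by own symbols, 7 of 22 were above 0, with a median of -0.12, and 0 passed (1 above 0 and 1 below at an unadjusted p under 0.05). Nearest to passing among the splicing regulator hosts was Tra2a (0.75, SE 0.17, adjusted p = 0.0525), followed by Srrm4 (0.57, SE 0.15, adjusted p = 0.0877) and Hnrnpu (0.56, SE 0.15, adjusted p = 0.0877). Of U1 snRNP proteins and associated factors, 9 were tested by their own symbols with 3 above 0, 0 that passed and 0 at an unadjusted p under 0.05. Read by host, 4 of 5 were above 0 with a median of 0.19, 0 passed and 1 had an unadjusted p under 0.05. Snrnp70, the precipitated protein's gene, had 32 to 64 counts per library and a change of -0.37 (SE 0.26, adjusted p = 0.675). All 3 tested glucocorticoid-response hosts lay above 0 and 0 passed, 2 of them with an unadjusted p under 0.05, among them Cdkn1a (1.16, SE 0.32, adjusted p = 0.0941) and Fkbp5 (0.46, SE 0.18, adjusted p = 0.267). Of 22 activity-induced transcription factors read by own symbols, 11 were tested, 4 lay above 0, 0 passed and 1 had an unadjusted p under 0.05. Too few reads for a test were counted at Nr4a1 (4 to 9 in a library), Bdnf (2 to 7), Npas4 (1 to 3) and Fos (0 to 3), and Arc (0.17, SE 0.40) and Homer1 (0.05, SE 0.27) did not pass. Features under the symbols of reference and abundant genes did not pass either: Actb -0.45 (SE 0.45), Gapdh 0.54 (SE 0.18), Camk2a -0.02 (SE 0.32), Malat1 -0.59 (SE 0.17) and Ube3a 0.56 (SE 0.20). Gapdh, Malat1 and Ube3a overlap the opposite-strand genes Iffo1, Gm37376 and Snhg14 in that order, and Bdnf overlaps Gm45346. Their values are those of features and not levels of the transcripts.

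Markers of other cell types were read by own symbols. All 7 tested endothelial markers were below 0 with a median of -0.33. By edgeR 0 passed and 1 had an unadjusted p under 0.05. They summed to 381 to 456 CPM in naive and 304 to 351 CPM in MECS libraries. Of 9 pericyte and smooth muscle markers 8 were below 0 with a median of -0.48, 0 passed and 2 had an unadjusted p under 0.05. Their sums were 592 to 652 and 476 to 562 CPM. The smallest p among them was at Notch3, a receptor of vascular smooth muscle, with a change of -0.49 (SE 0.16, adjusted p = 0.201). Neither summed range overlapped between the groups. Oligodendrocyte lineage markers lay the other way, with 6 of 9 above 0 and 0 that passed. Their sums were 386 to 402 CPM in naive and 416 to 440 CPM in MECS libraries, also without overlap. Inhibitory neuron markers had 1 of 3 above 0 and sums of 196 to 235 and 174 to 255 CPM. In input RNA the sums of each of these lists overlapped between the groups. Over all tested features, 48.1% were above 0 in U1 RNA and the median was -0.02. Of choroid plexus and ependymal markers only Ccdc103 had enough counts, and it rose. The summed level of astrocyte markers was 239 to 326 CPM in naive and 240 to 247 CPM in MECS libraries, and of microglia markers 326 to 352 and 312 to 358 CPM, with Itgam at 0. The part of vascular or meningeal RNA in the changes above was not tested.

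The changes in U1 RNA can be set beside those in input RNA of the same tissue. Of the 37 features that rose in U1 RNA, 36 were tested in input RNA, 34 lay above 0 there and 22 passed there, where 0.538% of all tested features rose. The median change of the 36 was 1.02 in U1 RNA, by which they had been selected, and 0.89 in input RNA. All 6 that fell lay below 0 in input RNA, and 3 passed, where 0.106% of all tested features fell. Hif1a changed by 1.70 (SE 0.24) in input RNA, A730049H05Rik by 1.82 (SE 0.21), Ube3b by 2.26 (SE 0.40) and Ccdc103 by 2.57 (SE 0.47). Of the 16 hosts that rose, all 16 lay above 0 in input RNA and 10 passed.

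A fit over all 12 libraries tested whether the MECS change differed between U1 and input RNA. By edgeR's quasi-likelihood test 0 of 12184 features and 0 of 3305 hosts passed, while 384 features and 109 hosts had an unadjusted p under 0.05. The smallest adjusted p, 0.122, was at Ccdc107, which shares 8.02% of its exon bases with Rmrp, the RNA of a nuclear and mitochondrial ribonuclease. It had 72.1, 95.9 and 132 CPM in naive and 191, 214 and 216 CPM in MECS U1 libraries and rose by 1.03 (SE 0.18, adjusted p = 0.00716). In input RNA it had 1547, 1793 and 1072 CPM in naive and 1442, 638 and 576 CPM in MECS libraries, a change of -0.73 (SE 0.22) that did not pass. The difference between the changes was 1.75 (SE 0.34). It passed with U1 and input libraries of the same title prefix paired by a replicate block (adjusted p = 0.00724), with library size scaling in place of TMM (adjusted p = 0.0371) and without naive U1 library 3 (adjusted p = 0.0181), while the rise in U1 RNA itself was lost without naive library 1 (0.109). Among the features that had passed in U1 RNA, 2 more had an unadjusted p under 0.01 for the difference. Gm45507, over exons of Bnip3, changed by -0.04 (SE 0.19) in input RNA and its difference was 0.94 (SE 0.29). Ccdc152 changed by 0.16 (SE 0.17) in input RNA and its difference was 0.79 (SE 0.28). Neither passed after adjustment.

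**Figure D5:**
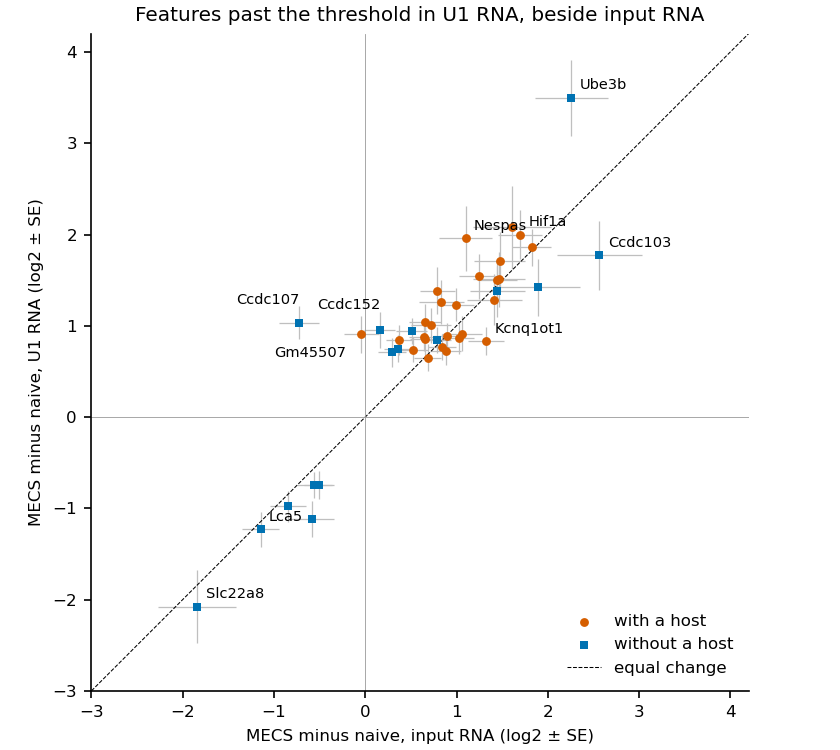
Change after MECS in U1 RNA (vertical axis, log2 with SE bars) against that in input RNA (horizontal axis, log2 with SE bars) for the 42 features past the threshold in U1 RNA that could be tested in both; circles have a host and squares do not. The dashed line marks equal change, and Ccdc107 and Gm45507 are the features that lie above 0 in U1 RNA and below 0 in input RNA.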

How the data were processed

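Per the labels, total RNA libraries were stranded, depleted of ribosomal RNA and read as 100 bp single-end reads. The deposited values were whole-number read counts per gene, which the authors made. The submitters' processing notes name Trimmomatic 0.39, FastQC, HISAT2 2.2.0, StringTie 2.1.3, Salmon 1.4, DESeq2 and mm10 without their roles; no source read for this work states the counting program, its strand setting or its annotation. The 5 summary entries naming no gene were left out. Of 55471 gene identifiers, 55144 matched GENCODE M21 and 327 did not. Counts were tested with edgeR 4.0.16 (R 4.3.3; TMM, filterByExpr, quasi-likelihood test, Benjamini-Hochberg 0.05), over the 6 U1 libraries, and over all 12 for the difference between U1 and input RNA. The biological coefficient of variation was 16.7%. Alternatives were other scalings and filters, DESeq2 1.42.0, limma-voom 3.58.1, leaving out each library in turn, and a replicate block. In data simulated for 10751 features, 46.1% of 89 changes of log2 1 and 96.8% of 95 of log2 2 were recovered, with 4 false among 137 calls. Simulated counts varied independently between features. Shifts shared by a whole library were not simulated, so these numbers do not measure false calls in the real libraries. Members and lists were chosen with earlier results of these data known. Any feature or host past the threshold could be named; of each list, up to 4 members with the smallest p; and a fixed set of reference and activity genes.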

Additional observations from a re-analysis of the deposited data

How the results depend on the processing

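Of 43 features past the threshold, 9 passed under each of 15 alternatives that gave them an adjusted p (DESeq2 gave none for Ube3b and Tmem222), 13 were lost in 1 or 2 and 21 in 3 or more, and no direction reversed. The count was 151 with no filter, 92 with a filter of 1 CPM, 80 with DESeq2 and 88 with all 12 libraries fitted together. Leaving out 1 library gave 13 to 225. Of 19 hosts, 2 passed under all 16 alternatives, and the count was 102 with no filter, 38 with DESeq2 and 9 with limma-voom, and 2 to 88 without 1 library. Calls among listed genes numbered 18, with 41 under no filter and 4 to 36 without 1 library. For the difference between U1 and input RNA, 0 features passed, 1 with library size scaling and 0 to 1 without 1 library, each time Ccdc107. Replicate numbers did not pair naive with MECS samples (correlations of same-numbered deviations 0.0071, -0.018 and -0.12). With a replicate block 35 features, 6 hosts, 10 calls among listed genes and 1 difference between U1 and input RNA (Ccdc107) passed. Without mitochondrial, ribosomal and small RNA features, the MECS minus naive share of counts was 0.709 percentage points for exon features (-2.46 with them), 0.101 for mixed (0.462), -0.741 for partial (0.518) and -1.91 for those with no opposite gene (-1.02). The causes were not tested. The shallowest library held 773074 gene counts, which limits precision. Fos and Npas4 had too few counts to be tested, and the part of depth or of the strand setting in that was not tested.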
